A study of Mus musculus with 8 samples.

Results

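The D cyclins, cyclin E1 and the inhibitors of cyclin-dependent kinases (CDKs) help decide, as proteins, whether a cell leaves the G1 phase, and their RNA was followed here in cultured mouse spermatogonial stem cells (SSCs) under retinoic acid (RA) and nutrient restriction (NR). The members were 10 genes taken by symbol from the table of read counts, which lists 55421 genes. They were the D cyclins *Ccnd1*, *Ccnd2* and *Ccnd3*, cyclin E1 (*Ccne1*), the Cip/Kip inhibitors *Cdkn1a* and *Cdkn1b*, and the INK4 inhibitors *Cdkn2a*, *Cdkn2b*, *Cdkn2c* and *Cdkn2d*. Each symbol matched 1 row, and all 10 were among the 20477 genes that passed the filter on low counts.

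The study asked whether nutrient restriction works together with RA in starting meiosis, and sequenced RNA of SSC cultures in 4 conditions with 2 libraries each. All cultures had the C57BL/6XDBA/2 background, came from testes of 6-day-old pups, and grew on irradiated embryonic fibroblasts of CF1 mice, so a library can hold feeder RNA. Vehicle cultures (Veh) stayed in complete SSC medium, which carries the growth factors GDNF and bFGF, and RA cultures received 100 nM RA in it. NR cultures received 10% complete medium in 90% Earle's balanced salt solution, and NRRA cultures received the same mixture with 100 nM RA. Treatment lasted 2 days. Nutrient restriction therefore also diluted the growth factors of the medium, and lower nutrients and lower growth factors cannot be told apart.

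D cyclins bind CDK4 and CDK6, and the pair phosphorylates the retinoblastoma protein, which frees E2F factors to switch on genes of DNA replication. Cyclin E with CDK2 completes this step. INK4 proteins bind CDK4 and CDK6 and keep D cyclins away, whereas Cip/Kip proteins bind cyclin-CDK complexes and mainly block CDK2. In the testis, cyclin D2 is known for its place in the step from undifferentiated to differentiating spermatogonia, and p18Ink4c and p19Ink4d for the later arrest of germ cells.

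Total counts lay between 19261333 and 30023585 per library, and the biological coefficient of variation estimated over all genes was 3.35%. The treatments were visible in known genes. *Stra8* is an RA target needed for meiotic initiation. Its level was 1.33 ± 0.26 CPM (read counts scaled to a common total, SD, n = 2) for Veh and 642 ± 15.1 for RA. It was 14.4 ± 0.17 for NR and 937 ± 28.5 for NRRA. *Zbtb16*, which marks undifferentiated spermatogonia, stood at 164 ± 10.8, 31.8 ± 0.031, 244 ± 7.14 and 35.4 ± 0.33 CPM in the same order. Germ cell identity was present throughout, with *Ddx4* at 138 ± 9.78, 163 ± 11.7, 183 ± 6.91 and 183 ± 10.7 CPM. The 12 fibroblast markers summed to 23753 to 23934 CPM for Veh, 18784 to 20194 for RA, 37263 to 38673 for NR and 30236 to 31117 for NRRA, and none was at 0 in any library.

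Between 6 and 10 of the 10 members passed the test in each of the 6 pairwise comparisons, mostly with steps below 2-fold. A member passed when its adjusted p was under 0.05 in edgeR's quasi-likelihood F test with Benjamini-Hochberg adjustment over all genes tested. RA against Veh moved 8 of 10 members, with 3 higher and 5 lower, where 43.2% of all genes passed (19.8% higher, 23.4% lower). NR against Veh also moved 8, with 1 higher and 7 lower, where 43.9% of all genes passed (21.7% higher, 22.2% lower). NRRA against Veh moved 7, with 1 higher and 6 lower, where 58.9% passed (30.1% higher, 28.7% lower).

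The remaining comparisons set the treated conditions against each other. NRRA against RA moved 6 members, all lower, where 40.3% of all genes passed (20.9% higher, 19.4% lower). NRRA against NR moved all 10, with 6 higher and 4 lower, where 43.4% passed (21.3% higher, 22.1% lower). NR against RA moved all 10 as well, with 4 higher and 6 lower, where 48.3% passed (24.5% higher, 23.8% lower). RA acted differently in the 2 media on 5 members, all with a more positive effect in NR medium, where 13% of all genes passed (6.37% more positive, 6.58% more negative).

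Few steps reached 2-fold. Under that added threshold 0 members passed in RA against Veh (7.49% of all genes), 2 in NR against Veh (8.29%), 1 in NRRA against Veh (15.9%), 1 in NRRA against RA (8.29%), 1 in NRRA against NR (8.7%), 3 in NR against RA (12.5%) and 0 for the difference between media (2.24%). They were *Ccnd1* in all comparisons of an NR medium with a complete one, *Cdkn2b* in NR against Veh and against RA, and *Cdkn2d* in NR against RA and in NRRA against NR. The median log2 fold change of the 10 members was -0.60 in NR against Veh, -0.40 in NRRA against Veh, -0.22 in RA against Veh, -0.16 in NRRA against RA, 0.35 in NRRA against NR and -0.70 in NR against RA. Over all genes tested the median lay between -0.02 and 0.03 in these comparisons. With 2 libraries a condition, separation of the libraries is common. The libraries of both conditions did not overlap for 8 to 10 members per comparison, against 68.1% to 77.3% of all genes.

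**Figure D1:**
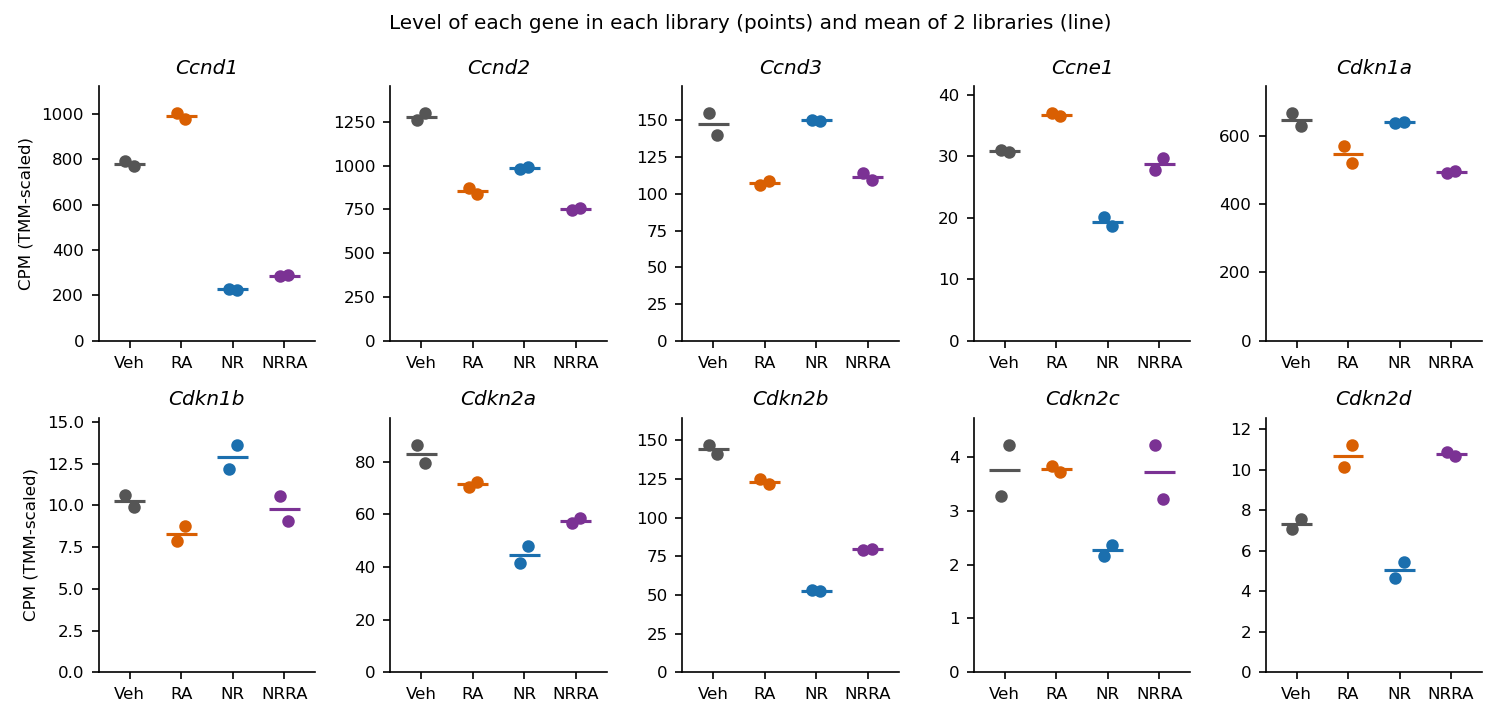
Level of each of the 10 members in each of the 8 libraries (points) with the mean of the 2 libraries of a condition (line), in CPM scaled by TMM, on axes that start at 0 and differ between genes. *Ccnd1* fell from 780.4 CPM in Veh to 226 in NR and 286 in NRRA, and *Cdkn2b* from 144 to 52.7 and 79.5, while *Cdkn1a* kept a narrower range of 493 to 647.

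*Ccnd1*, which encodes cyclin D1, the D cyclin most tied to growth factor signals, had the widest range among the members, 4.36-fold between the RA and NR means. Its level was 789 and 771 CPM for Veh, 1001 and 974 for RA, 227 and 226 for NR, and 284 and 289 for NRRA. All 4 libraries in NR medium lay below all 4 libraries in complete medium, and within each medium the RA libraries lay above those without RA. NR lowered it 3.45-fold against Veh (log2 fold change -1.79, SE 0.039, adjusted p = 7.95e-23), and NRRA lowered it 3.45-fold against RA (-1.79, SE 0.038, adjusted p = 4.81e-23). RA raised it 1.27-fold in complete medium (log2 0.34, SE 0.037, adjusted p = 2.99e-08) and 1.27-fold in NR medium (log2 0.34, SE 0.038, adjusted p = 5.14e-08). The difference between both RA effects was -0.00 on the log2 scale with a 95% interval of -0.11 to 0.11 (adjusted p = 0.998). In this bulk RNA, fewer cells of a type and less RNA per cell cannot be told apart.

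The exons of *Ccnd1* overlap those of a neighbour. *Ccnd1* lies at chr7:144929931-144939925 on the minus strand (GRCm38, GENCODE M21), and 1100 of its exon bases, 23.36%, are also exon of *LTO1* on the opposite strand, a gene of ribosome function. The counting is not stated to have used the strand of the reads. How reads over these bases were assigned to either gene, or left out, is therefore not known. Counts of *LTO1* were 34.6 to 40.4 per 100 counts of *Ccnd1* in the 8 libraries, with the RA libraries at the low end and the NR libraries at the high end. Among the 10293 genes with a mean of at least 10 CPM, *LTO1* had the pattern closest to *Ccnd1* over the 8 libraries (Pearson r = 0.9997 of log2 CPM). *Nes* (nestin, r = 0.9988) and *Adcy7* (an adenylate cyclase, r = 0.9987), on chromosomes 3 and 8, came next. These correlations are descriptions over libraries that share conditions.

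**Figure D2:**
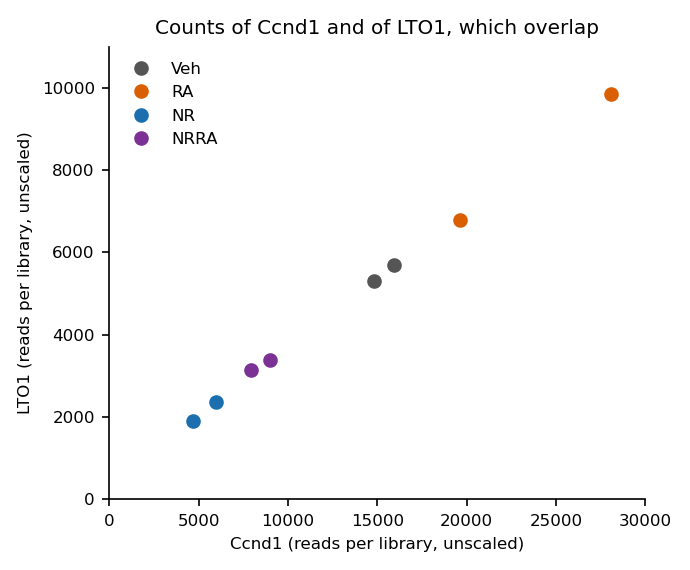
Reads counted on *LTO1* (y axis) against reads counted on *Ccnd1* (x axis) in each of the 8 libraries, as deposited and unscaled, with 1 colour per condition. The points run along 1 line from 1902 *LTO1* and 4708 *Ccnd1* reads in an NR library to 9850 and 28095 in an RA library.

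*Ccnd2*, cyclin D2, fell under every treatment. It stood at 1258 and 1298 CPM for Veh, 872 and 837 for RA, 978 and 989.7 for NR, and 748 and 758 for NRRA, and no 2 conditions overlapped. RA lowered it 1.5-fold against Veh (log2 -0.58, SE 0.036, adjusted p = 8.41e-13), NR lowered it 1.3-fold (-0.38, SE 0.036, adjusted p = 2.23e-09) and NRRA 1.7-fold (-0.76, SE 0.036, adjusted p = 7.73e-16). The order from low to high was NRRA, RA, NR and Veh, and each neighbour in it differed (adjusted p = 0.000179 for the closest pair, NRRA and RA). RA lowered *Ccnd2* less in NR medium (log2 -0.39) than in complete medium, a difference of 0.20 (SE 0.051, adjusted p = 0.01) that did not pass when RA replicate 2, NRRA replicate 2 or either NR replicate was left out (0.15 to 0.19).

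*Ccnd3*, cyclin D3, responded to RA and showed no step with nutrient restriction that passed the test. Its libraries gave 155 and 140.2 CPM for Veh, 106 and 109 for RA, 150.5 and 149.7 for NR, and 114 and 109 for NRRA. The 4 RA-treated libraries lay below the 4 others. RA lowered it 1.37-fold in complete medium (log2 -0.46, SE 0.051, adjusted p = 4.82e-08) and 1.34-fold in NR medium (-0.43, SE 0.05, adjusted p = 7.68e-08). For NR against Veh the log2 difference was 0.02 with a 95% interval of -0.08 to 0.13 (adjusted p = 0.731), and for NRRA against RA it was 0.05 with an interval of -0.05 to 0.16 (adjusted p = 0.424). Without Veh replicate 1, the higher of the Veh pair, NR against Veh came to 0.12 and passed, and without Veh replicate 2 it came to -0.03. A related sequence listed as *Ccnd3-ps* held 2 to 7 counts per library, and *Ccnd2*, *Ccnd3* and *Cdkn1a* share 3.91% to 7.68% of their exon bases with genes on the other strand.

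Set against exon length, so that genes can be compared, the makeup of the D cyclins differed between the media. In CPM per kb of exon, *Ccnd1* made up 52.1% of the D cyclin sum for Veh, 67.1% for RA, 28.3% for NR and 39.6% for NRRA. *Ccnd2* made up 42.7%, 29.0%, 61.6% and 52.1%, and *Ccnd3* 5.28%, 3.92%, 10.1% and 8.29%, in the same order. *Ccnd2* had the larger share in all 4 libraries in NR medium, and *Ccnd1* in both RA libraries. For Veh the order differed between CPM and levels per length. In CPM *Ccnd2* stood above *Ccnd1* for Veh (1278 against 780), and *Ccnd1* came out ahead after division by exon bases summed over all annotated transcripts, 4709 for *Ccnd1* and 9409 for *Ccnd2*. By the longest coding transcript, a length chosen after the values were seen (3740, 6330 and 2113 bases), *Ccnd1* made up 43.4%, 58.7%, 21.1% and 30.8%, *Ccnd2* 42.0%, 29.99%, 54.2% and 47.9%, and *Ccnd3* 14.5%, 11.3%, 24.7% and 21.3%. With that length both were nearly level for Veh, and *Ccnd3* passed *Ccnd1* in NR. The summed level was 318 ± 0.88 CPM per kb for Veh, 313 ± 6.51 for RA, 169.7 ± 0.70 for NR and 154 ± 1.22 for NRRA (SD, n = 2). The part of *LTO1* reads in the *Ccnd1* share was not tested.

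**Figure D3:**
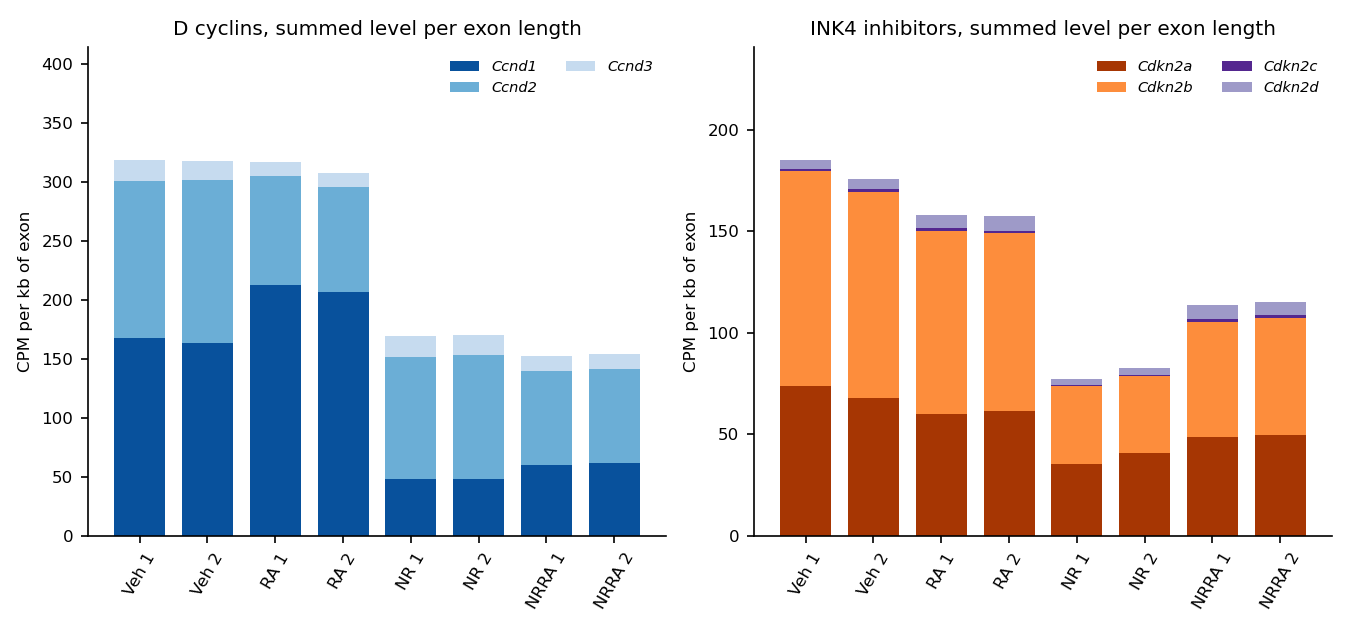
Stacked level per exon length (y axis, CPM per kb of exon) of the 3 D cyclins (left) and the 4 INK4 inhibitors (right) in each of the 8 libraries. The D cyclin sum falls from 318 in Veh to 169.7 in NR with *Ccnd1* shrinking most, and the INK4 sum, nearly all *Cdkn2a* and *Cdkn2b*, falls from 180.4 to 80.1.

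*Ccne1*, the E cyclin that partners CDK2, moved in the same direction as *Ccnd1* under each single treatment. Per exon length its condition means lay between 7.28 and 13.8 CPM per kb, beside 12.2 to 17.1 for *Ccnd3*, the lowest of the D cyclins on this scale. By the longest coding transcript they were 9.69 to 18.4 and 50.8 to 71.0. Its libraries held 31.1 and 30.7 CPM for Veh, 37.0 and 36.4 for RA, 20.04 and 18.7 for NR, and 27.8 and 29.7 for NRRA. NR lay lowest and RA highest without overlap, and both NRRA libraries lay just below Veh. RA raised it 1.19-fold against Veh (log2 0.25, SE 0.068, adjusted p = 0.00422), and NR lowered it 1.6-fold (-0.68, SE 0.075, adjusted p = 3.07e-08). NRRA differed from Veh by -0.10 on the log2 scale with a 95% interval of -0.24 to 0.04 (adjusted p = 0.208). RA raised it 1.49-fold in NR medium (log2 0.57, SE 0.071, adjusted p = 2.46e-07). The RA effect was larger there by 0.33 (SE 0.099, adjusted p = 0.028), which did not pass with DESeq2 (0.31) or without any 1 of 6 libraries, all but Veh replicate 2 and NRRA replicate 1.

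The partners of these cyclins split by direction, and passed about as often as genes in general. Of the 10 genes listed as kinases, other cyclins, activators and inhibitors of this step, 4 passed higher and 1 lower in RA, 1 higher and 4 lower in NR, and 3 higher and 2 lower in NRRA, each against Veh. These 5 of 10 stand beside 43.2%, 43.9% and 58.9% of all genes. *Cdk4* stood at 285 ± 3.08 CPM for Veh, 235 ± 1.57 for RA, 219 ± 1.36 for NR and 179 ± 3.59 for NRRA, and fell in all 3 treatments (log2 -0.28, -0.38 and -0.67). *Cdk6*, the other D cyclin kinase, stood at 96.3 ± 8.56, 117 ± 1.02, 79.7 ± 2.62 and 121 ± 3 CPM. It rose in RA and NRRA (log2 0.28 and 0.33) and fell in NR (-0.27).

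For the E cyclin arm, *Ccne2*, which encodes cyclin E2, rose in RA, NR and NRRA against Veh (log2 0.66, 0.27 and 0.94). *Cdk2* rose in RA (log2 0.22) and fell in NR (-0.26), and NRRA against Veh gave 0.13 without passing. *Cdc25a*, a phosphatase that activates CDK2, fell in NR and NRRA (log2 -0.53 and -0.15), and RA against Veh gave -0.09 without passing. *Cdkn1c*, the third Cip/Kip inhibitor, rose in RA and NRRA (log2 0.55 and 0.36), and NR against Veh gave -0.13 without passing. *Ccnh*, *Cdk7*, *Mnat1*, which together form the CDK-activating kinase, and *Cdkn3* passed in none of the 3.

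*Cdkn1a*, p21, the Cip/Kip inhibitor switched on by p53, was the inhibitor with the highest level per exon length, 139 to 182 CPM per kb over the condition means, and the smallest range, 1.31-fold. It stood at 665 and 629 CPM for Veh, 569.6 and 520.2 for RA, 637 and 639.6 for NR, and 489 and 497 for NRRA. The RA-treated libraries lay below the libraries without RA in both media, and the NR libraries lay between both Veh libraries. RA lowered it 1.19-fold in complete medium (log2 -0.25, SE 0.042, adjusted p = 2.9e-05) and 1.29-fold in NR medium (-0.37, SE 0.042, adjusted p = 4.97e-08). NR against Veh gave -0.02 with a 95% interval of -0.11 to 0.07 (adjusted p = 0.748). NRRA lay 1.1-fold below RA (log2 -0.14, SE 0.042, adjusted p = 0.00772), a call that was lost without RA replicate 1 (-0.08) or NRRA replicate 1 (-0.13). *Cdkn1a* supplied 98.3% to 98.9% of the summed CPM per kb of *Cdkn1a* and *Cdkn1b* in the 8 libraries.

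*Cdkn1b*, p27, whose amount in cells is set largely by protein turnover, was higher in NR than in Veh, RA or NRRA. Its counts were between 154 and 359 per library. The levels were 10.6 and 9.90 CPM for Veh, 7.85 and 8.77 for RA, 12.2 and 13.6 for NR, and 10.6 and 9.05 for NRRA. Both NR libraries lay above all others, both RA libraries below all others, and Veh and NRRA overlapped. NR raised it 1.26-fold against Veh (log2 0.34, SE 0.11, adjusted p = 0.0151), which was lost with DESeq2 (0.32, adjusted p = 0.118), without Veh replicate 2 and without NR replicate 2. RA against Veh gave -0.29 with a 95% interval of -0.54 to -0.05 and missed the threshold (adjusted p = 0.0501). This step passed with RLE scaling (-0.30) and without NRRA replicate 2 (-0.29). NRRA fell 1.32-fold below NR (log2 -0.41, SE 0.1, adjusted p = 0.00239), which was lost without NR replicate 2 or NRRA replicate 2. NRRA against Veh gave -0.07 with an interval of -0.30 to 0.16 (adjusted p = 0.631). The largest step was NR against RA (log2 0.63, SE 0.11, adjusted p = 3.24e-05), which ranged from 0.53 to 0.72 with 1 library left out.

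The other genes listed as p53 and its targets split. Of 21, 7 passed higher and 9 lower in RA against Veh, 4 higher and 11 lower in NR, and 5 higher and 12 lower in NRRA, with medians of -0.09, -0.13 and -0.18 on the log2 scale. Beside them, 43.2%, 43.9% and 58.9% of all genes passed in either direction. *Trp53*, the p53 gene, fell in NRRA against Veh (log2 -0.61), as did *Tigar* (-0.75), a regulator of sugar breakdown, and the secreted factor *Gdf15* (-1.10). *Trp53inp1* (log2 0.72), the death receptor gene *Fas* (0.67) and *Eda2r* (0.63) rose.

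*Cdkn2a* and *Cdkn2b* are neighbours on chromosome 4 and moved in the same order of conditions. *Cdkn2a* (chr4:89274471-89294653, minus strand) makes p16Ink4a and p19Arf from separate first exons, and counts per gene cannot separate them. *Cdkn2b* (chr4:89306299-89311039, minus strand) makes p15Ink4b and lies 11645 bases away. No other gene of the annotation shares exon bases with either. The sequences around their start sites are shown because these neighbours fell together under nutrient restriction, and that of *Cdkn2d* because its RNA went the other way under RA in complete medium. They run from 250 bases before to 50 bases after the start site, 5′ to 3′ on the gene's strand, from RefSeq on GRCm38.p6, in which 8 of the 10 members were matched with 12 windows. Capitals mark matches to the motifs named next.
*Cdkn2b*, chr4:89310983-89311282 (- strand): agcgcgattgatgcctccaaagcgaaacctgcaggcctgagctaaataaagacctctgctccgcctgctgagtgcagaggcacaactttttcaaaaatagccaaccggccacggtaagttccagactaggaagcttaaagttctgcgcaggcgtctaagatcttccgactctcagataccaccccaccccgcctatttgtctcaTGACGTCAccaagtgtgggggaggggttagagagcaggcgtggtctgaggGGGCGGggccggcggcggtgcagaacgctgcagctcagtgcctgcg
*Cdkn2a*, p19Arf side, chr4:89294570-89294869 (- strand): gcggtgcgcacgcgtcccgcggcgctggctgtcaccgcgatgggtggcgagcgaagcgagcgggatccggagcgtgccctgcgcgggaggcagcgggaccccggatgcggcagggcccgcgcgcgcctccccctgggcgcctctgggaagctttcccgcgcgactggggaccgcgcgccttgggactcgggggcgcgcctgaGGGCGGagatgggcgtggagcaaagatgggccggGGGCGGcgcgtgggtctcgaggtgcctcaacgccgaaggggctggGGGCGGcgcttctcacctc
*Cdkn2a*, p16Ink4a side, chr4:89282143-89282442 (- strand): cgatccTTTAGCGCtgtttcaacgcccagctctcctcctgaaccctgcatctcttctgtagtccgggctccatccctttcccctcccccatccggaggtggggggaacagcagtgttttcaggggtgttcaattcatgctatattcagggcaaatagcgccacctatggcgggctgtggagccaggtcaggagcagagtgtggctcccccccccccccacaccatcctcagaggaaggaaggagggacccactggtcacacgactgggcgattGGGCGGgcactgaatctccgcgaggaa
*Cdkn2d*, chr9:21291160-21291459 (- strand): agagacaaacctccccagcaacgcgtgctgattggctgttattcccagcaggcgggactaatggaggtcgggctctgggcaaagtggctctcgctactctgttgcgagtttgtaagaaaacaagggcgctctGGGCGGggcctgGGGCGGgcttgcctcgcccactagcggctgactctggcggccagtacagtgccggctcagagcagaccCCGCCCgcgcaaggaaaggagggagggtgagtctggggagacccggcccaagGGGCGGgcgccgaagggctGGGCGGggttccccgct

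In these windows, searched on both strands, the *Cdkn2b* start held TGACGTCA, the palindromic cyclic AMP response element, at position -46 from the start site. Of 32851 promoter windows of the same length, 1.79% held it. The *Cdkn2a* window on the p16Ink4a side held TTTAGCGC at position -244, a match to the E2F pattern TTTNGCGC as searched, in which N is any base (1.38% of windows). Each of the 4 windows held the GC box GGGCGG, which 35.7% of all windows hold, with 5 matches in *Cdkn2d*, 3 in *Cdkn2a* on the p19Arf side and 1 in each of the others. None of the 4 held GGCGGGAA (2.19% of all windows), the retinoic acid response element as a direct repeat of AGGTCA (0.00913%) or AGTTCA (0.0244%) with 5 bases between the repeats, TGATGNAA of the amino acid response (3.97%) or the FoxO motif GTAAACA (3.65%). The GC box and the cyclic AMP response element were added to the search after the windows had been looked at. GGGCGG and GGCGGGAA can share bases where they overlap. A match describes letters and not a site of binding.

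*Cdkn2b* had the largest steps of the inhibitors. It stood at 147 and 141 CPM for Veh, 125 and 121 for RA, 53.2 and 52.3 for NR, and 79.0 and 79.9 for NRRA, with no overlap between any conditions. NR lowered it 2.73-fold against Veh (log2 -1.45, SE 0.051, adjusted p = 2.67e-18), and NRRA lowered it 1.55-fold against RA (-0.63, SE 0.048, adjusted p = 2.56e-11). RA lowered it 1.17-fold in complete medium (log2 -0.23, SE 0.047, adjusted p = 0.000308) and raised it 1.51-fold in NR medium (0.59, SE 0.052, adjusted p = 4.4e-10). The RA effect differed between media by 0.82 (SE 0.07, adjusted p = 3.22e-09). Its pattern over the 8 libraries was closest to those of *Vamp3* (r = 0.9966), which acts in vesicle fusion, *Fam171a1* (0.9960) and *Sh3bgrl2* (0.9941).

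*Cdkn2a* took the same turn with smaller steps. Its libraries held 86.3 and 79.3 CPM for Veh, 70.4 and 72.2 for RA, 41.4 and 47.9 for NR, and 56.7 and 58.4 for NRRA. The conditions did not overlap, with NR lowest, then NRRA, RA and Veh. NR lowered it 1.85-fold against Veh (log2 -0.89, SE 0.064, adjusted p = 1.07e-11), and NRRA lay 1.24-fold below RA (-0.31, SE 0.061, adjusted p = 0.000168). RA against Veh gave -0.21 (SE 0.061, adjusted p = 0.00585), a call lost without Veh replicate 1 (-0.13), whereas RA raised it 1.29-fold in NR medium (0.36, SE 0.064, adjusted p = 4.34e-05). The difference between these effects was 0.58 (SE 0.089, adjusted p = 4.08e-05). For *Cdkn2a* and *Cdkn2b* this difference kept an adjusted p under 0.05 with each other fit and each library left out, but was below 2-fold for both, so neither passed the 2-fold threshold.

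*Cdkn2c*, p18Ink4c, was near the lower end of what these libraries resolve, with 45 to 118 counts each. It was measured at 3.27 and 4.22 CPM for Veh, 3.82 and 3.71 for RA, 2.17 and 2.35 for NR, and 4.22 and 3.21 for NRRA. Both NR libraries lay below the other 6, which overlapped. NR lowered it 1.64-fold against Veh (log2 -0.72, SE 0.21, adjusted p = 0.00583), which was lost without Veh replicate 2 (-0.51), and NRRA lay 1.63-fold above NR (0.70, SE 0.19, adjusted p = 0.00409), which was lost without NRRA replicate 1 (0.50) and with DESeq2 (0.69). RA against Veh gave 0.01 with a 95% interval of -0.37 to 0.39 (adjusted p = 0.976) and NRRA against Veh -0.02 with an interval of -0.39 to 0.35 (adjusted p = 0.945), so steps within these intervals were not detectable at this depth.

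*Cdkn2d*, p19Ink4d, rose with RA in complete medium, where *Cdkn2a* and *Cdkn2b* fell. Its counts were 97 to 333 per library and its levels 7.08 and 7.56 CPM for Veh, 10.1 and 11.2 for RA, 4.67 and 5.43 for NR, and 10.9 and 10.7 for NRRA. The RA and NRRA libraries were the highest and overlapped, Veh lay between, and NR was lowest. RA raised it 1.47-fold against Veh (log2 0.56, SE 0.12, adjusted p = 0.000354) and 2.12-fold in NR medium (1.08, SE 0.12, adjusted p = 2.44e-08). NR lowered it 1.44-fold against Veh (log2 -0.52, SE 0.14, adjusted p = 0.0024), whereas NRRA against RA gave 0.00 with a 95% interval of -0.21 to 0.21 (adjusted p = 0.991). The difference between media, 0.53 (SE 0.17, adjusted p = 0.0386), was lost with DESeq2 (adjusted p = 0.203), without a filter on low counts and on leaving out any 1 library but RA replicate 2. Among the genes closest in pattern over the 8 libraries were the germ cell gene *Rhox13* (r = 0.9878) and *Bcl2l11*, which encodes the death factor Bim (0.9877).

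Per exon length the INK4 sum was 180.4 ± 6.69 CPM per kb for Veh, 158 ± 0.24 for RA, 80.1 ± 3.84 for NR and 115 ± 1.14 for NRRA (SD, n = 2). *Cdkn2b* held 57.5%, 56.2%, 47.5% and 49.9% of it and *Cdkn2a* 39.2%, 38.6%, 47.5% and 42.9%, in that order. By the longest coding transcript *Cdkn2b* held 51.1%, 49.9%, 41.2% and 43.8% and *Cdkn2a* 45.6%, 45.0%, 54.0% and 49.3%. The order of both in NRRA thus depended on the length used. In NR both were level by exon bases, with the 2 libraries in opposite order. By the longest coding transcript *Cdkn2a* was ahead there. *Cdkn2d* held 2.58%, 4.31%, 4.0% and 5.98% by exon bases, and *Cdkn2c* 0.78% to 1.21%. The sums of the D cyclins and of the INK4 genes were thus both lowest per length in media with nutrient restriction. These sums were mostly *Ccnd1*, *Ccnd2*, *Cdkn2a* and *Cdkn2b*, and counts of *Cdkn2a* include p19Arf. Per kb *Ccnd3* stood at 16.8, 12.2, 17.1 and 12.7 CPM and *Cdkn2d* at 4.65, 6.79, 3.21 and 6.85, for Veh, RA, NR and NRRA. In NR medium the D cyclin sum was 169.7 without RA and 154 with it, and the INK4 sum 80.1 without RA and 115 with it.

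Read by gene, the RA effect had the same sign in both media for *Ccnd1*, *Ccne1* and *Cdkn2d*, which rose, and for *Ccnd2*, *Ccnd3* and *Cdkn1a*, which fell. It turned from lower to higher for *Cdkn2a* and *Cdkn2b*. *Cdkn1b* and *Cdkn2c* passed for RA in NR medium and missed in complete medium, and for them the difference between media was -0.11 with a 95% interval of -0.44 to 0.21 (adjusted p = 0.715) and 0.69 with an interval of 0.14 to 1.24 (adjusted p = 0.0933). For *Ccnd3* the difference was 0.03 with an interval of -0.12 to 0.18, and for *Cdkn1a* it was -0.12 with an interval of -0.25 to -0.00 (adjusted p = 0.192). Without NRRA replicate 2 that of *Cdkn2c* passed (0.88), and without Veh replicate 1 that of *Cdkn1a* passed (-0.20). The difference between the NR effects with and without RA is the same number by construction.

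**Figure D4:**
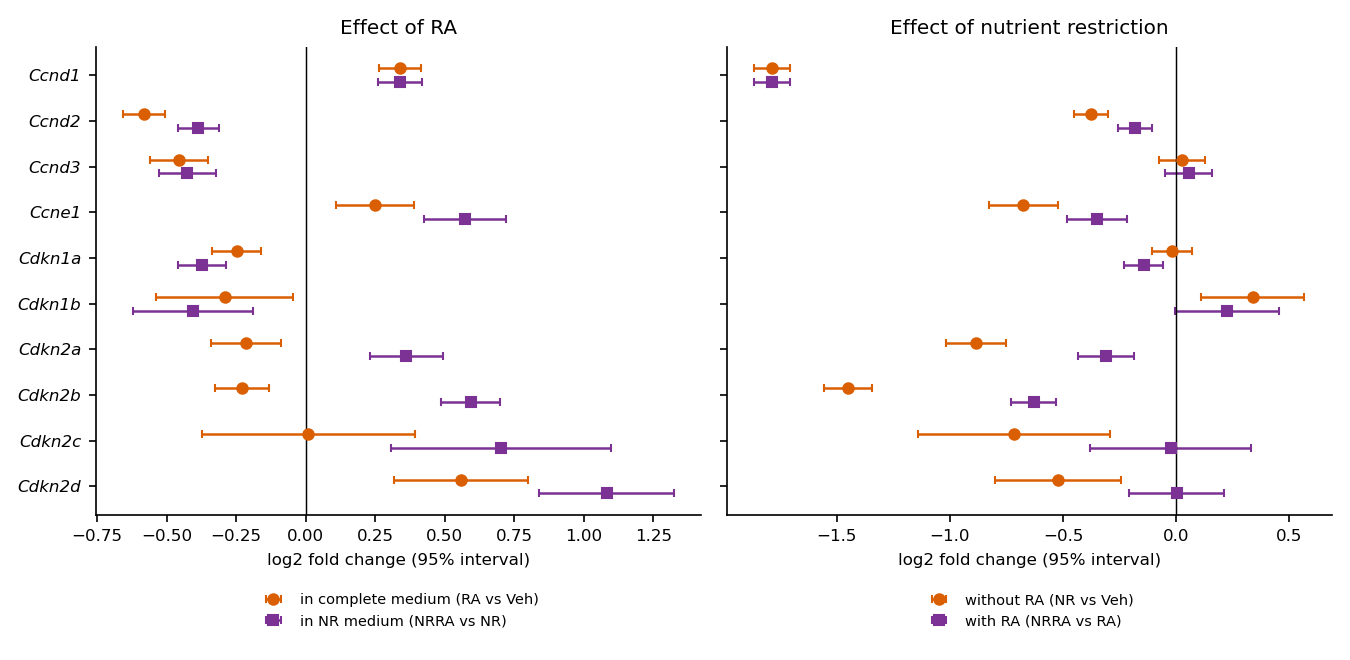
Log2 fold change (x axis) with its 95% interval for each member (rows), for RA in complete and in NR medium (left) and for nutrient restriction without and with RA (right), from the edgeR fit to 8 libraries. *Cdkn2a* and *Cdkn2b* sit left of 0 for RA in complete medium and right of 0 in NR medium, and *Ccnd1* sits at -1.79 for nutrient restriction with and without RA.

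Downstream of these proteins, the 13 genes of the retinoblastoma and E2F families split, with 3 higher and 5 lower in NR against Veh and 6 higher and 6 lower in NRRA against Veh. *Rb1*, which encodes the retinoblastoma protein, stood at 47.5 ± 2.35 CPM for Veh and 71.9 ± 1.34 for NRRA and rose (log2 0.60), with the related pocket protein gene *Rbl2* (0.31) and the E2F partner gene *Tfdp2* (0.30). The repressor E2F gene *E2f8* fell from 38.7 ± 1.85 to 26.8 ± 0.40 CPM (log2 -0.53), with *E2f6* (-0.45) and *E2f1* (-0.36). In RA against Veh, 3 rose and 3 fell. Of all genes, 43.2% passed in RA, 43.9% in NR and 58.9% in NRRA, each against Veh.

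Genes listed for the turnover of cyclins and inhibitors through ubiquitin, which include some that oppose it, split as well. Of 16, 3 rose and 7 fell in RA against Veh, 4 rose and 4 fell in NR, and 4 rose and 6 fell in NRRA, with medians of -0.14, -0.06 and -0.02 on the log2 scale. In either direction 43.2%, 43.9% and 58.9% of all genes passed in these comparisons. *Cks1b*, a cofactor in the removal of p27, fell in NRRA against Veh (log2 -0.54), as did *Ambra1* (-0.38), which takes part in the removal of D cyclins, and *Ddb1* (-0.25). The ligase scaffolds *Cul4b* (log2 0.35) and *Cul1* (0.27) rose, as did *Fbxw7* (0.25), which recognises cyclin E. Protein levels were not measured in these libraries.

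Genes of DNA replication and mitosis moved beside the members. Of 22, 19 fell and 2 rose in NR against Veh (median log2 -0.33), 15 fell and 4 rose in NRRA (-0.23), and 8 fell and 2 rose in RA (-0.08). Among all genes 22.2% passed lower in NR, 28.7% in NRRA and 23.4% in RA, and 21.7%, 30.1% and 19.8% passed higher. In NRRA against Veh the replication genes *Mcm7* (log2 -0.45), *Mcm6* (-0.34) and *Rrm2* (-0.42) fell, and *Mki67* (0.80), *Bub1* (0.67) and *Gmnn* (0.39) rose. RA had a more positive effect in NR medium for 14 of the 22 and a more negative one for 0 (median difference 0.27), as for 5 and 0 of the members (0.26). Of all genes, 6.37% passed as more positive and 6.58% as more negative. The summed level of the 22 genes was 2516 to 2548 CPM for Veh, 2391 to 2454 for RA, 2106 to 2134 for NR and 2397 to 2403 for NRRA. The part of cell division in the members' levels was not tested.

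Markers of the cells in the dish moved too. The fibroblast markers passed higher for 11 of 12 in NR against Veh (median log2 0.68), for 9 of 12 in NRRA (0.46, with 3 lower) and for 1 in RA (-0.29, with 8 lower). Of all genes, 21.7%, 30.1% and 19.8% passed higher and 22.2%, 28.7% and 23.4% lower, in that order. *Col3a1* (log2 1.41), *Postn* (1.6) and *Col1a1* (1.02) rose in NRRA against Veh, and *Fn1* (-0.55), *Lum* (-0.74) and *Fbln2* (-0.24) fell. The fibroblast sum was thus highest in NR, where *Ccnd1*, *Ccne1* and the 4 INK4 genes were lowest and *Cdkn1b* was highest. It was lowest in RA, where *Ccnd1* and *Ccne1* were highest and *Cdkn1b* lowest, though *Cdkn1b* in RA did not pass against Veh or NRRA. Other members went otherwise. *Cdkn2a* and *Cdkn2b* were highest in Veh, *Ccnd2* and *Cdkn1a* were lowest in NRRA, and *Cdkn2d* was level in RA and NRRA. The part of feeder RNA in the members' levels was not tested.

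Among germ cell states, 8 of 9 markers of undifferentiated spermatogonia fell in RA and in NRRA against Veh, among them *Ret* (log2 -2.87), *Bcl6b* (-3.17) and *Etv5* (-2.68) in NRRA, while in NR 2 rose and 4 fell. Of 6 markers of differentiating spermatogonia, 5 rose in RA and 0 fell, 4 rose and 1 fell in NR, and 5 rose and 1 fell in NRRA. The gene that fell in NR was *Sohlh2*, from 136 ± 3.85 to 89.4 ± 1.25 CPM (log2 -0.60), and the summed level of the list in NR lay at -0.13 and -0.07 on the log2 scale relative to the Veh mean. The list was led in NRRA by *Stra8* (log2 9.47), *Kit* (5.82) and *Rec8* (3.38), while *Dmrtb1* fell (-1.38). Of 7 general germ cell markers, 3 rose and 2 fell in RA, 5 rose and 1 fell in NR, and 4 rose and 2 fell in NRRA, with *Dazl* (0.58), *Sohlh1* (0.86) and *Ddx4* (0.41) higher and *Dppa3* (-4.02) and *Mael* (-0.15) lower in NRRA. *Ccnd2*, *Ccnd3*, *Cdkn1a*, *Cdkn2a* and *Cdkn2b* were lower, and *Cdkn2d* higher, in both conditions in which most undifferentiated markers fell. *Ccnd1* was higher in RA and lower in NRRA. In NR, where 2 of those markers rose and 4 fell, *Ccnd2* (log2 -0.38), *Cdkn2a* (-0.89) and *Cdkn2b* (-1.45) were lower as well. The part of the change of cell state in these members' levels was not tested.

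**Figure D5:**
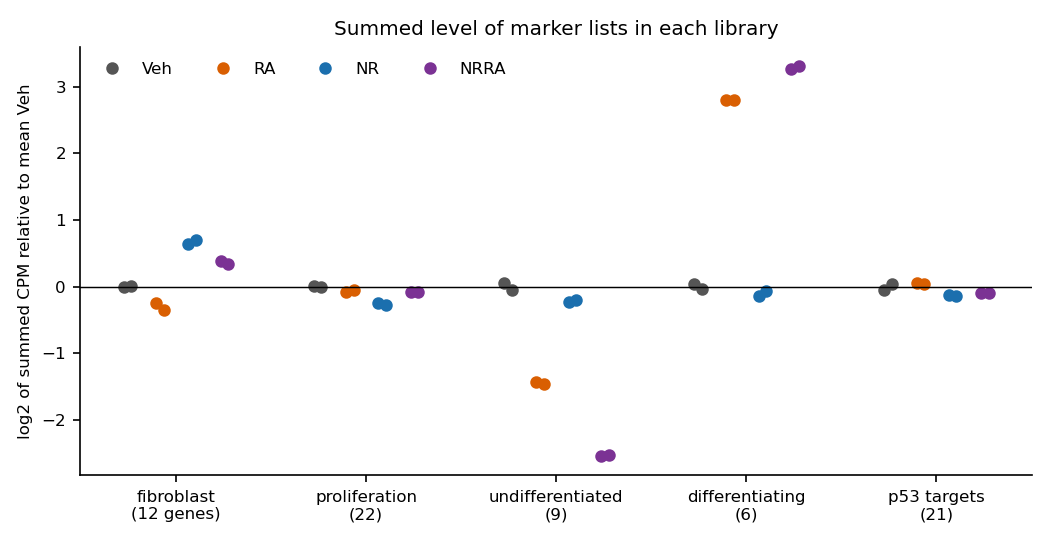
Summed CPM of 5 gene lists in each of the 8 libraries, as log2 relative to the mean of the Veh libraries (y axis), with 1 colour per condition and the number of genes of each list under its name. The fibroblast sum is highest in NR (0.64 and 0.70), the proliferation sum lowest in NR (-0.25 and -0.27), and the undifferentiated and differentiating sums move apart in RA and NRRA.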

How the data were processed

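RNA of SSC cultures was measured by stranded poly(A) RNA-seq in 8 libraries, 2 independent biological replicates in each of 4 conditions. Per the labels, the authors used bcl2fastq, STAR 2.6.1c and featureCounts 1.6.4 on mm10, and the study's text names another STAR version. They deposited raw read counts per gene. Whether counting used the strand, and which annotation, is not given in the sources used here. The labels and the study's text name different library kits and GDNF concentrations.

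Counts were filtered with filterByExpr, scaled by TMM and fitted with edgeR 4.0.16 (R 4.3.3, limma 3.58.1) with 1 coefficient per condition over all 8 libraries, so that the comparisons share 1 estimate of the spread with 4 residual degrees of freedom. Quasi-likelihood F tests were made for 6 pairwise comparisons and for the difference between RA effects in both media, with Benjamini-Hochberg adjustment over all genes tested within each comparison, at 0.05. In this fit the spread of each gene is moderated towards that of other genes, so an interval does not rest on the gene's own libraries alone. An SE is the log2 fold change divided by the square root of F. The code was also run on counts simulated with 1 common spread for all genes. Such counts cannot show how well the spread of single genes is estimated. Each condition's 2 libraries differed by more than counting noise (chi-square per gene 1.58 to 3.93).

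Levels are CPM with TMM-scaled totals. Exon lengths, overlaps and coordinates came from GENCODE M21 (GRCm38), which holds 55240 of the 55421 identifiers, and start site windows from RefSeq. Likeness of pattern is Pearson's r of log2(CPM + 0.5). Figures were drawn with matplotlib 3.10.9.

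All 10 members are named. Of 9 further lists (partners, retinoblastoma and E2F, turnover, p53, proliferation, fibroblast, germ cell, undifferentiated, differentiating), at most 3 genes with the lowest adjusted p in NRRA against Veh are named per direction, all partners may be named, and for the 3 members with a 2-fold range of condition means the 3 genes of closest pattern are named, except 1 that is not reported here. *Stra8*, *Zbtb16* and *Ddx4* serve as checks of treatment and cell type. Members and lists were chosen with earlier results of these data known. Alternatives were DESeq2 1.42.0, RLE scaling, no filter, a 2-fold threshold, a replicate block, only the compared conditions, and leaving out each library, with the longest coding transcript as another length added after the values were seen.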

Additional observations from a re-analysis of the deposited data

Results flagged for a closer look

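For 5 members the effect of RA in NR medium differed from that in complete medium by edgeR's quasi-likelihood test of the difference itself. The log2 difference was 0.82 for *Cdkn2b*, 0.58 for *Cdkn2a*, 0.53 for *Cdkn2d*, 0.33 for *Ccne1* and 0.20 for *Ccnd2*, with adjusted p between 3.22e-09 and 0.0386. For *Cdkn2a* and *Cdkn2b*, RA lowered the level in complete medium and raised it in NR medium. For *Ccne1* and *Cdkn2d* it raised the level in both media, and for *Ccnd2* it lowered it in both. Only the differences of *Cdkn2a* and *Cdkn2b* kept an adjusted p under 0.05 with each other fit and each library left out, and none of the 5 reached 2-fold. Groups of 2 libraries are too small for a search for single libraries that stand apart.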

How the results depend on the processing

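Of 54 member values that passed, 0 changed direction in 697 values from other fits, and 666 kept their call (the 2-fold threshold is counted apart). Under the 2-fold threshold the number of members that passed fell to 0 in RA against Veh, 2 in NR against Veh, 1 in NRRA against Veh, 1 in NRRA against RA, 1 in NRRA against NR, 3 in NR against RA and 0 for the difference between media, and of all genes to 1534, 1698, 3263, 1697, 1781, 2556 and 459. That difference passed for 3 members with DESeq2 and for 2 to 4 with 1 library left out, lowest without either NR replicate, and over all genes for 2652 in the first fit, 1608 with DESeq2 and 1642 to 3776 with 1 library left out. With 1 library left out, members passed 7 to 9 times in RA against Veh, 6 to 9 in NR against Veh, 7 in NRRA against Veh, 5 to 6 in NRRA against RA, 9 to 10 in NRRA against NR and 10 in NR against RA. All genes then passed 6443 to 8653, 6997 to 8899, 10497 to 12036, 6397 to 9112, 6668 to 9846 and 7816 to 10773 times, against 8837, 8985, 12051, 8254, 8888 and 9899 in the first fit. A lone library was then assumed to vary like the others.

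The replicate numbers showed no pairing of the libraries over genes: deviations of equally numbered libraries correlated at -0.046 to 0.034. Counting noise in these deviations weakens such a correlation, so it cannot settle whether libraries were paired. With the replicate block 8, 8, 7, 6, 10 and 10 members passed in the 6 pairwise comparisons and 5 for the difference between media, beside 8751, 8942, 11996, 8233, 8821, 9827 and 2588 of all genes, and no member call changed.

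Of 16 member values that did not pass, 10 changed sign under at least 1 alternative, in 27 alternative values. *Cdkn2c* in RA against Veh came to -0.0011 without a filter, -0.0025 with DESeq2 and -0.14 to 0.22 with 1 library left out. *Cdkn2d* in NRRA against RA came to -0.017 with RLE scaling, -0.0085 in the compared conditions only and -0.013 with DESeq2. The difference between media came to 0.0083 for *Ccnd1* without a filter. The causes were not tested.

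With 1 library left out, *Cdkn2d* in NRRA against RA ranged from -0.061 to 0.087, *Cdkn2c* from -0.22 to 0.17 in NRRA against Veh and from -0.23 to 0.17 in NRRA against RA, *Ccnd3* and *Cdkn1a* in NR against Veh from -0.032 to 0.12 and from -0.046 to 0.040, and *Cdkn1b* in NRRA against Veh from -0.18 to 0.044. The difference between media then ranged from -0.054 to 0.022 for *Ccnd1*, from -0.082 to 0.067 for *Ccnd3* and from -0.22 to 0.00089 for *Cdkn1b*.

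Genes under about 100 counts per library, here *Cdkn2c*, had the widest errors. The log2 intervals rest on the spread between the 2 libraries of each condition, pooled over the 4 conditions and moderated towards that of other genes. They cover no other source of variation.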
